A study of Mus musculus with 24 samples.

Results

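The developmental homeobox genes outside the Hox clusters that are described here belong to 12 families of transcription factors (Dlx, Lhx, Nkx, sine oculis, Irx, Emx, Msx, Barx, Barhl, Alx, Prrx and Isl). They were picked by symbol, a family name followed by a number, and 55 of the 22609 genes counted in the files matched. By family they are 13 Nkx, 8 Lhx, 6 Dlx, 6 sine oculis, 6 Irx, 3 Alx, 3 Msx, and 2 each of Barhl, Barx, Emx, Isl and Prrx. Of the 55, 26 had a mean of at least 1 CPM (gene counts scaled to a common library size) in at least 1 of the 8 groups, and 29 stayed under it. CPM is not divided by gene length, so it compares a gene between groups and does not rank genes.

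The samples are E14TG2a cells, a mouse embryonic stem cell (mESC) line of the 129/Ola strain grown without feeder cells in serum and LIF, the cytokine that keeps mESCs pluripotent. Polyadenylated RNA was sequenced in 24 strand-specific libraries, 3 per group. The RA groups, in which LIF had been taken away and all-trans retinoic acid (RA) given at 1e-06 M for 24 h, carried shMed12, shCdk8 or shNMC. The mESC groups, kept in LIF, carried shMed12, shCdk8, shRing1b or shNMC, or were untransfected. Hairpins were stably transfected; shNMC is a short hairpin without a mammalian target, and shRing1b is directed at Ring1b, the product of Rnf2. The labels do not say how many hairpin sequences or clones stand behind a line, nor whether replicates were separate cultures, so p-values measure the spread between these libraries, which may be technical.

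Homeobox genes encode proteins that bind DNA through a homeodomain, and each family shapes particular structures of the embryo: Msx, Dlx, Alx, Barx and Prrx genes the face, teeth and limbs, the sine oculis genes the kidney, muscle and sense organs, Irx and Nkx genes the heart, gut and neural tube, and LIM genes (Lhx, Isl) and Emx genes neurons and the forebrain. In pluripotent cells most of them are kept low, and their CpG-rich promoters are known as binding sites of Polycomb complexes, of which Ring1b is the ubiquitin ligase. Med12 and Cdk8 are subunits of the kinase module of Mediator, the complex that links transcription factors to RNA polymerase II. RA acts through nuclear receptors and induces differentiation of mESCs.

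The promoter sequences of 5 members on which the results below turn are shown to let a reader see their CpG content. Each line gives the 250 bases before the start of the RefSeq transcript in build GRCm38.p6, 5′ to 3′ on the gene's strand, with every CpG in capitals. The counts in the files were made on mm9, whose coordinates differ from these.
Msx1 (chr5:37824586-37824835, minus strand): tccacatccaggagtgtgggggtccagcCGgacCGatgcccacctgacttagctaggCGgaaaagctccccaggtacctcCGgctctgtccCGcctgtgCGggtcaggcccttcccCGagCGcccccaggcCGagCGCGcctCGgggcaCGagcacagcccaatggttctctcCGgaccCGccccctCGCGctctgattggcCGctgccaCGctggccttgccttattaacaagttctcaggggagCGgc
Msx2 (chr13:53472781-53473030, minus strand): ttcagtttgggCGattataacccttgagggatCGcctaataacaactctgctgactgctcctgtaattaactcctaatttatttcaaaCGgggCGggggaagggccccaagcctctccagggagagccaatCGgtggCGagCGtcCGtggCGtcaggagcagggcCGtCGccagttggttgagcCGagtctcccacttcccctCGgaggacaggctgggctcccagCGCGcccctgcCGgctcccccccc
Irx4 (chr13:73260247-73260496, plus strand): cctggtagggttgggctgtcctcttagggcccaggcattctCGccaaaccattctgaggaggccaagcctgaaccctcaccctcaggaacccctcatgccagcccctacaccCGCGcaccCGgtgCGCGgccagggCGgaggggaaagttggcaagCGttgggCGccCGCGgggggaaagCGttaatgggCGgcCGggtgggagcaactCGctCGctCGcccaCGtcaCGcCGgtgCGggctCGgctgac
Six2 (chr17:85688255-85688504, minus strand): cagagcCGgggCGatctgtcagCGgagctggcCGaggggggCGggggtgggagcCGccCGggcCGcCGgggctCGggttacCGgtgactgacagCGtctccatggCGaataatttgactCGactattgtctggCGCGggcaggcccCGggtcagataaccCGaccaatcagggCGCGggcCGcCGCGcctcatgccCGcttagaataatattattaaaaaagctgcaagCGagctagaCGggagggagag
Emx2 (chr19:59458440-59458689, plus strand): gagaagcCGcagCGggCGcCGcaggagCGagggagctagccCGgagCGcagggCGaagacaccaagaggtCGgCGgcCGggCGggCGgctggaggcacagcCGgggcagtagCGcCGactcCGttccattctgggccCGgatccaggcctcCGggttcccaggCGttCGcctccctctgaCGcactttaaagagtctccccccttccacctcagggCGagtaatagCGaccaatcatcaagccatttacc
These windows held 20 (Msx1), 16 (Msx2), 22 (Irx4), 26 (Six2) and 24 (Emx2) CpGs. In RefSeq windows of 300 bases (250 before to 50 after the start), 39 of the 55 members matched, with 45 windows. The observed over expected CpG ratio had a median of 0.75 in the members' windows and 0.38 in all 32851 windows, and exceeded 0.6 in 75.6% of the members' windows and 35.8% of all windows. The letters AGGTCA, the core motif that RA receptors are known to bind, were searched on both strands and stood in 6.67% of the members' windows and 16.3% of all windows, and the direct repeat of these letters 5 bases apart stood in none of the 45 windows and 0.00913% of all. CCAAT (both strands) was held by 44.4% and 37.4%, and TATAAA (both strands) by 6.67% and 13.6%. A window without a motif says only that these letters are not in it.

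Gene counts per library ran between 27.4 and 57.3 M, and 3 counts corresponded to 0.0463 to 0.120 CPM. The hairpin targets were lower in their own lines: Med12 at 38.8 to 61.2 CPM in RA shMed12 cells against 94.1 to 144 CPM in RA shNMC cells, and at 35.2 to 46.2 CPM in mESC shMed12 cells against 129 to 140 CPM in mESC shNMC cells. Cdk8 stood at 8.21 to 12.4 CPM in RA shCdk8 cells against 42.6 to 48.1 CPM in RA shNMC cells, and at 10.7 to 15.2 CPM in mESC shCdk8 cells against 50.1 to 56.1 CPM in mESC shNMC cells. Rnf2 stood at 52.4, 64.2 and 207 CPM in the libraries labelled shRing1b, against 221, 302 and 262 CPM in untransfected cells, so replicate 3 of shRing1b goes against its label. The 6 shRing1b and untransfected libraries also form a technical set, with 20.0% to 21.7% of all entries being reads with several alignments against 44.1% to 49.1% in the other 18, and shRing1b was therefore set first against untransfected cells. Cyp26a1 and Rarb, textbook RA targets, averaged 333 and 36.7 CPM in RA shNMC cells against 1.43 and 1.55 CPM in mESC shNMC cells. All 10 pluripotency markers of the list reached 1 CPM in every mESC group.

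Members reaching 1 CPM numbered 23 in RA shMed12 cells, 20 in RA shCdk8 cells and 20 in RA shNMC cells. In mESCs they numbered 13 with shMed12, 13 with shCdk8, 14 with shRing1b, 11 with shNMC and 11 in untransfected cells. The 9 members at 1 CPM or more in all 8 groups include Six4, Six5, Irx2, Msx2, Lhx6, Prrx2 and Isl1. A filter on low counts left 48 of the 55 for testing; Barhl1, Lhx4, Nkx2-2, Nkx2-4, Nkx2-6, Nkx3-2 and Nkx6-1 were not tested, with a highest group mean of 0.00594 to 0.213 CPM. Members that are low elsewhere passed this filter through the group where they were high, so counts and medians over the 48 are a description.

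**Figure D1:**
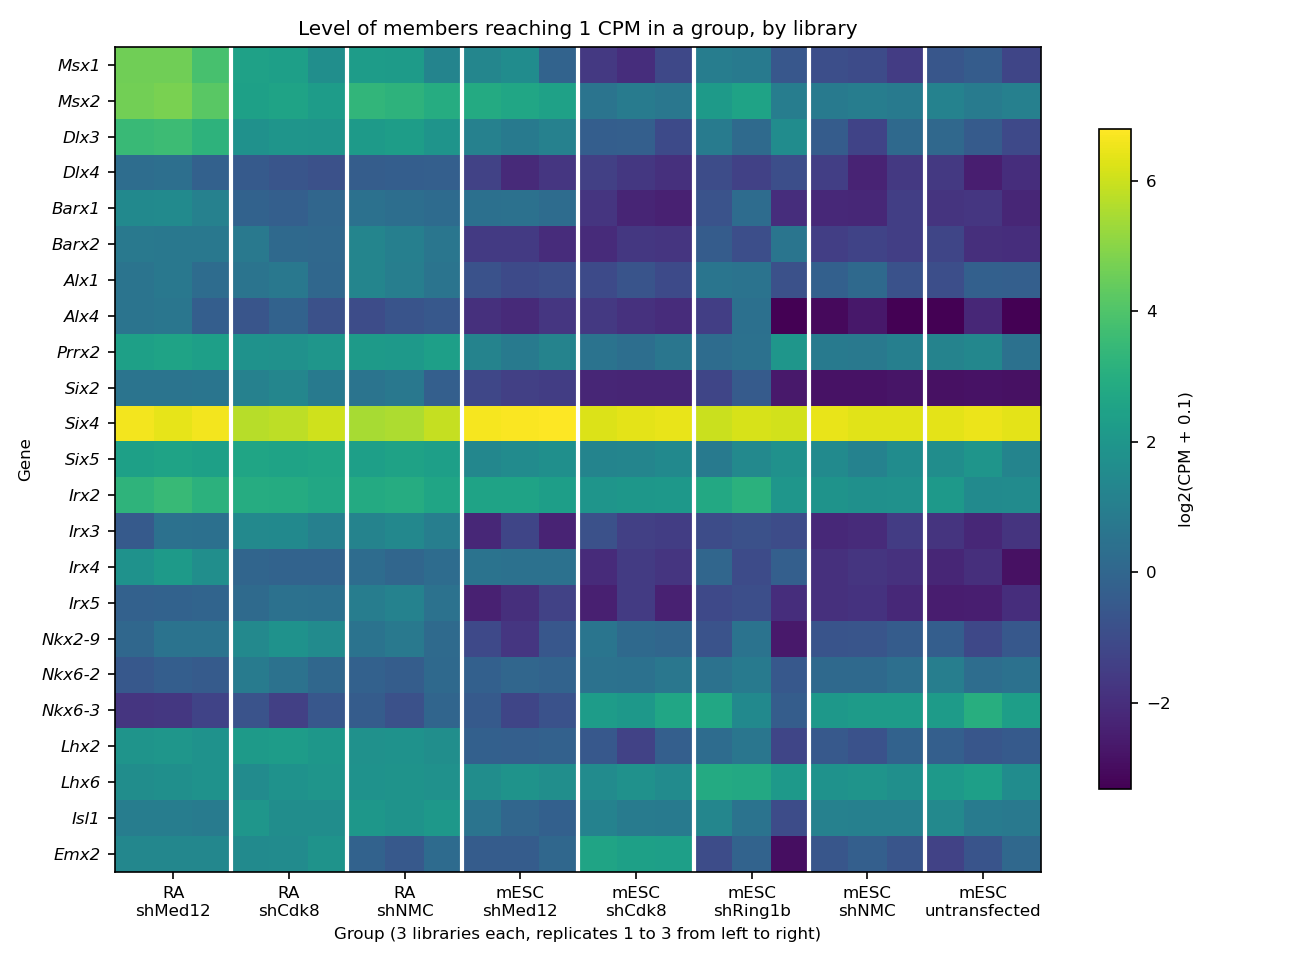
Level of 23 of the 26 members reaching 1 CPM in a group, as log2(CPM + 0.1), in each of the 24 libraries (columns, 3 per group) with genes in rows by family. The RA columns on the left are brighter for most rows, Six4 is bright in every column, and the columns of shRing1b differ among themselves.

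With RA, most of these genes rose in the hairpin control line, and 26 of them also rose in both the shMed12 and the shCdk8 lines. In shNMC cells 35 of the 48 tested members rose and 2 fell, where 27.3% of all 16280 genes tested rose and 24.1% fell, 51.4% in either direction (edgeR quasi-likelihood test, adjusted p under 0.05). The median log2 change was 1.92 over the 48 members and 0.02 over all genes. With shMed12, 29 members rose and 0 fell, also in DESeq2, against 19.6% and 17.5% of all genes (37.1% in either direction). With shCdk8 33 rose and 3 fell, against 26.7% and 25.1% (51.7% in either direction). Median log2 changes were 1.40 with shMed12 and 1.69 with shCdk8, against 0.03 and 0.01 over all genes. Non-overlap of groups was counted over all 55 members, tested or not, and its share over the 16280 genes tested. Groups did not overlap for 38 members higher and 3 lower with RA in shNMC cells (34.4% and 30.7% of the genes tested). The counts were 37 and 3 with shMed12 (31.1% and 26.8%) and 39 and 4 with shCdk8 (34.8% and 31.9%). These comparisons share no libraries, and 26 members rose in all 3 lines. The share of all genes that rose in all 3 was not counted. In whole cultures, fewer cells of a type and less RNA per cell cannot be told apart. The 10 pluripotency markers summed to 2399 to 2896 CPM in RA shNMC cells and 6099 to 6148 CPM in mESC shNMC cells, with none at 0 in either group. The 9 neural markers measured, none at 0, summed to 112 to 124 CPM in RA shNMC cells and 121 to 134 CPM in mESC shNMC cells. Their part in the members' rise was not tested.

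Msx1 and Msx2, homeodomain repressors that BMP signals induce in facial and limb mesenchyme, both rose with RA. Msx2 had 10.1, 9.19 and 7.47 CPM in RA shNMC cells against 1.64, 1.87 and 1.65 CPM in mESC shNMC cells, a log2 change of 2.37 (SE 0.26, edgeR adjusted p = 2.2e-07). Msx1 had 4.70, 4.56 and 2.25 CPM in RA shNMC cells against 0.436, 0.393 and 0.246 CPM in mESC shNMC cells (log2 3.40, SE 0.48, edgeR adjusted p = 4.9e-06). No library of either gene overlapped between the groups. Replicate 3 was the lowest of its group for Msx1 in 7 of the 8 groups, mESC shCdk8 cells being the exception. Dlx3, which is required in placenta, skin and bone, had 4.41, 4.90 and 3.65 CPM in RA shNMC cells against 0.664, 0.315 and 0.983 CPM in mESC shNMC cells (log2 2.74, SE 0.36, edgeR adjusted p = 1.7e-06).

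Irx2, Six5 and Prrx2, which mESCs already expressed above 1 CPM, rose by 1.02 to 1.41 on the log2 scale. Irx2 had 7.15, 7.58 and 6.05 CPM in RA shNMC cells and 3.55, 3.27 and 3.34 CPM in mESC shNMC cells (log2 1.03, SE 0.21, edgeR adjusted p = 3.0e-04). Six5 had 5.15, 5.50 and 5.14 CPM in RA shNMC cells against 2.72, 2.10 and 2.95 CPM in mESC shNMC cells (log2 1.02, SE 0.20, edgeR adjusted p = 2.5e-04). Prrx2, a gene of limb and facial mesenchyme, had 4.40, 4.38 and 5.14 CPM in RA shNMC cells and 1.68, 1.59 and 1.97 CPM in mESC shNMC cells (log2 1.41, SE 0.31, edgeR adjusted p = 6.8e-04). The groups of these 3 genes did not overlap, and all 3 also rose with RA in the shMed12 and shCdk8 lines.

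Members whose highest group mean was 1 to 5 CPM included genes near or under the floor in mESCs. Six2, which keeps nephron progenitors undifferentiated, had 1.39, 1.54 and 0.726 CPM in RA shNMC cells against 0.0415, 0.0393 and 0.0492 CPM in mESC shNMC cells, 6 reads over the group and under the floor of 3 counts in each library (log2 4.74, SE 0.51, edgeR adjusted p = 1.5e-07). Irx3 had 2.22, 2.52 and 1.90 CPM in RA shNMC cells against 0.125, 0.138 and 0.246 CPM in mESC shNMC cells (log2 3.71, SE 0.36, edgeR adjusted p = 4.0e-08). Lhx2, a LIM gene of eye and forebrain, had 3.40, 3.48 and 3.09 CPM in RA shNMC cells against 0.602, 0.492 and 0.811 CPM in mESC shNMC cells (log2 2.39, SE 0.32, edgeR adjusted p = 2.6e-06). Other members of this class that rose in shNMC cells included Alx1, Alx4, Barx1, Barx2, Dlx4, Irx4, Irx5, Isl1 and Nkx2-9, with log2 changes of 0.92 (Isl1) to 4.03 (Alx4), and Nkx6-2 did not pass (log2 -0.34, adjusted p = 0.33). The calls of Isl1 and Nkx2-9 were lost without some single libraries (adjusted p up to 0.059 and 0.094).

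Six4 and Nkx6-3 went down with RA in shNMC cells. Six4, a sine oculis gene of muscle and kidney, had 44.3, 46.5 and 59.1 CPM in RA shNMC cells against 87.4, 80.4 and 80.9 CPM in mESC shNMC cells (log2 -0.73, SE 0.11, edgeR adjusted p = 6.6e-06). Nkx6-3, known from the stomach and hindbrain, had 0.661, 0.461 and 0.894 CPM in RA shNMC cells against 4.13, 4.62 and 4.62 CPM in mESC shNMC cells (log2 -2.73, SE 0.48, edgeR adjusted p = 7.3e-05). Both also fell with RA in the shCdk8 line, by 0.51 for Six4 and by 3.49 for Nkx6-3 on the log2 scale. With shMed12 the log2 change with RA was -0.18 for Six4 (edgeR adjusted p = 0.19) and -1.01 for Nkx6-3 (edgeR adjusted p = 0.20). Lhx6, a gene of cortical interneurons, did not pass in shNMC cells, at 3.47, 3.57 and 3.41 CPM in RA shNMC cells and 3.45, 3.68 and 3.19 CPM in mESC shNMC cells (log2 0.02, edgeR adjusted p = 0.95).

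**Figure D2:**
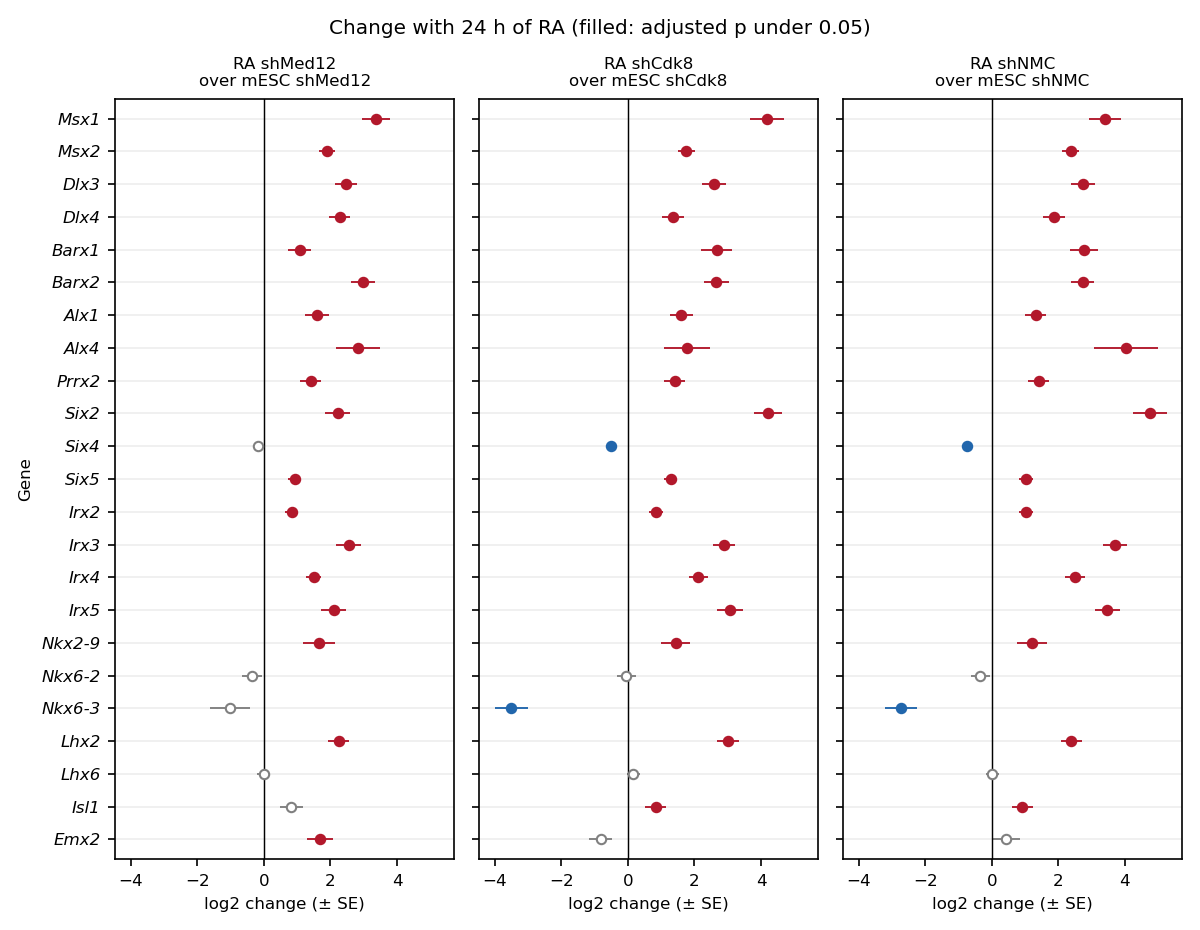
Log2 change with 24 h of RA (points, bars ± SE) of 23 of the 26 members reaching 1 CPM in the shMed12, shCdk8 and shNMC lines, with filled points at an adjusted p under 0.05, red for rises and blue for falls. Most points lie right of 0 in each panel; Six4 and Nkx6-3 lie left of 0 and are filled in the shCdk8 and shNMC panels.

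With shMed12 in mESCs, 14 members rose and 4 fell, against 20.6% and 19.9% of all genes (40.5% in either direction). After RA 14 rose and 8 fell, against 21.3% and 20.6% (41.9% in either direction). The share called in either direction lies near the background in both states, 18 of 48 in mESCs and 22 of 48 after RA. Over all 55 members, groups did not overlap for 23 higher and 10 lower in mESCs (28.5% and 29.4% of the genes tested). After RA they did not overlap for 17 higher and 13 lower (30.2% and 29.6%). The median log2 change was 0.48 in mESCs and 0.16 after RA, against -0.01 and 0 to 2 decimals over all genes. The 2 comparisons share no libraries, and 10 of the 14 rises in each were the same genes. Among them were Barx1, Dlx3, Irx2, Irx4, Lhx9, Msx1, Msx2, Nkx1-2 and Six4. How often rises were shared over all genes was not counted. The comparisons of shMed12 and shCdk8 with shNMC do share their control libraries, as do those of RA with mESCs and of hairpins within a state.

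Msx1 had 24.3, 24.4 and 14.1 CPM in RA shMed12 cells against 4.70, 4.56 and 2.25 CPM in RA shNMC cells (log2 2.45, SE 0.40, edgeR adjusted p = 3.8e-05). In mESCs it had 2.42, 2.90 and 0.826 CPM with shMed12 against 0.436, 0.393 and 0.246 CPM with shNMC (log2 2.48, SE 0.49, edgeR adjusted p = 3.1e-04). The lowest shMed12 library lay above the highest shNMC library in both states. Msx2 had 24.8, 26.8 and 18.5 CPM in RA shMed12 cells against 10.1, 9.19 and 7.47 CPM in RA shNMC cells (log2 1.39, SE 0.24, edgeR adjusted p = 8.4e-05), and 7.09, 6.23 and 5.38 CPM in mESC shMed12 cells against 1.64, 1.87 and 1.65 CPM in mESC shNMC cells (log2 1.85, SE 0.26, edgeR adjusted p = 6.4e-06). Msx3, a gene of the dorsal neural tube, rose after RA (0.862 against 0.295 CPM, log2 1.53, SE 0.43, edgeR adjusted p = 6.5e-03).

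Dlx3 followed the same course, with 11.6, 11.9 and 9.06 CPM in RA shMed12 cells against 4.41, 4.90 and 3.65 CPM in RA shNMC cells (log2 1.33, SE 0.31, edgeR adjusted p = 1.5e-03). In mESCs it had 2.05, 1.67 and 2.09 CPM with shMed12 and 0.664, 0.315 and 0.983 CPM with shNMC (log2 1.59, SE 0.36, edgeR adjusted p = 1.2e-03). Its chromosomal neighbour Dlx4 did not pass in either state (log2 0.53 after RA, edgeR adjusted p = 0.13; log2 0.12 in mESCs, edgeR adjusted p = 0.84). Dlx5, which patterns the lower jaw, rose after RA (0.871 CPM in RA shMed12 cells against 0.348 CPM in RA shNMC cells, log2 1.31, SE 0.38). Dlx1, a gene of forebrain interneurons, fell (0.270 against 0.670 CPM, log2 -1.31, SE 0.39), a call lost without some single libraries (adjusted p up to 0.068).

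Among the face and gut mesenchyme genes, Barx1, a regulator of stomach and molar development, had 2.68, 2.76 and 2.06 CPM in RA shMed12 cells and 1.25, 1.17 and 1.04 CPM in RA shNMC cells (log2 1.11, SE 0.33, edgeR adjusted p = 9.1e-03). In mESCs it had 1.22, 1.26 and 1.09 CPM with shMed12 against 0.125, 0.118 and 0.270 CPM with shNMC (log2 2.81, SE 0.43, edgeR adjusted p = 1.7e-05), and groups did not overlap in either state. Alx1, Alx4, Barx2 and Prrx2 did not pass in either state. Nkx1-2, known from the caudal stem zone of the embryo, rose in both (0.728 CPM in RA shMed12 cells against 0.0364 CPM in RA shNMC cells, log2 4.23, SE 0.65; 0.368 CPM in mESC shMed12 cells against 0.0273 CPM in mESC shNMC cells, log2 3.54, SE 0.77). Lhx9, a gonad and forebrain gene, rose in both as well, at 0.225 CPM in RA shMed12 cells against 0.0543 CPM in RA shNMC cells and at 0.421 CPM in mESC shMed12 cells against 0.0381 CPM in mESC shNMC cells.

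The 6 Irx genes lie in 2 chromosomal clusters, which are described in turn. On chromosome 13, where Irx1, Irx2 and Irx4 are neighbours, Irx4, a gene of the heart ventricle, had 3.43, 4.46 and 3.08 CPM in RA shMed12 cells against 1.09, 0.905 and 1.10 CPM in RA shNMC cells (log2 1.82, SE 0.23, edgeR adjusted p = 1.8e-06). In mESCs it had 1.34, 1.28 and 1.27 CPM with shMed12 against 0.166, 0.197 and 0.172 CPM with shNMC (log2 2.84, SE 0.29, edgeR adjusted p = 9.2e-08). Irx2 rose in mESCs, with 5.79, 5.77 and 4.99 CPM with shMed12 against 3.55, 3.27 and 3.34 CPM with shNMC (log2 0.70, SE 0.21, edgeR adjusted p = 9.9e-03). With RA it had 9.38, 11.2 and 8.95 CPM with shMed12 against 7.15, 7.58 and 6.05 CPM with shNMC (log2 0.51, SE 0.20, edgeR adjusted p = 0.047), a call lost in each of the 6 fits without 1 library (adjusted p up to 0.18). Irx1 rose in mESCs (log2 1.77, SE 0.37, edgeR adjusted p = 6.1e-04).

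On chromosome 8, where Irx3, Irx5 and Irx6 are neighbours, none passed with shMed12 in mESCs and Irx3 and Irx5 fell after RA. Irx3, a neural tube and heart conduction gene, had 0.637, 1.27 and 1.24 CPM in RA shMed12 cells against 2.22, 2.52 and 1.90 CPM in RA shNMC cells (log2 -1.07, SE 0.29, edgeR adjusted p = 4.8e-03). Irx5 had 0.772, 0.802 and 0.861 CPM in RA shMed12 cells against 1.84, 2.13 and 1.32 CPM in RA shNMC cells (log2 -1.12, SE 0.30, edgeR adjusted p = 4.8e-03). Irx6 had a log2 change of -0.71, which did not pass. Exons of Irx3 and of Irx6 overlap a gene on the opposite strand in the GENCODE M21 annotation, and the sources used here do not state whether strand was used in counting. Exons of Dlx1, Dlx4, Dlx6, Lhx3, Lhx5, Nkx1-2, Nkx2-2, Nkx2-6, Nkx6-2, Six3 and Six6 also overlap an opposite-strand gene there, so their counts carry the same doubt. Those of Alx1 and Lhx6 overlap a gene on their own strand. The difference between the clusters was not tested as such.

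**Figure D3:**
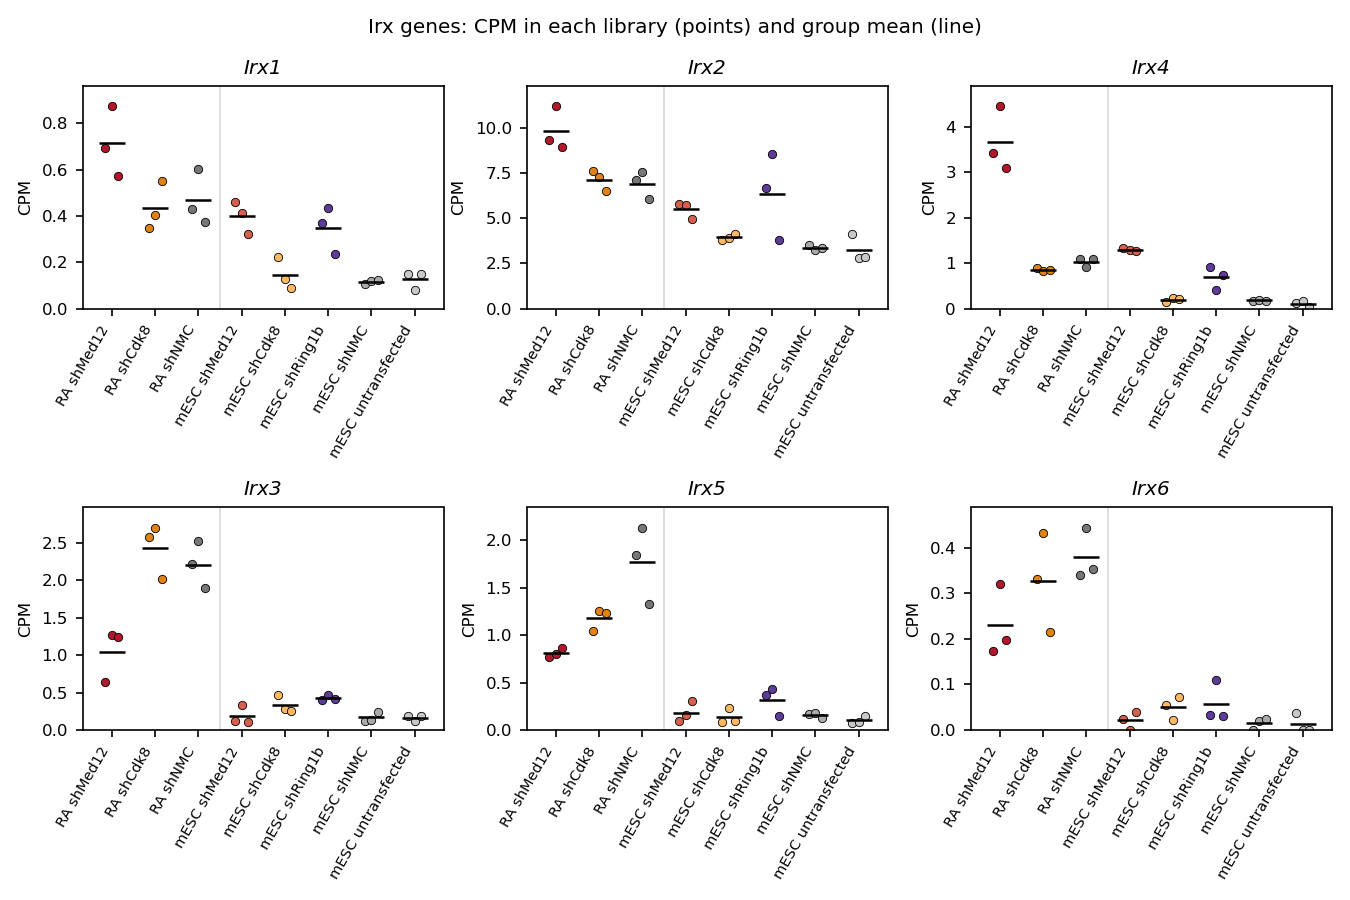
CPM of the 6 Irx genes in each library (points) with the group mean (line), RA groups left of mESC groups, the chromosome 13 genes in the upper row and the chromosome 8 genes in the lower row. RA shMed12 is the highest RA group in the upper row and the lowest RA group in the lower row.

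Six4 is the member whose shMed12 effect differed between states in the upward direction. It had 97.5, 85.4 and 98.5 CPM in RA shMed12 cells against 44.3, 46.5 and 59.1 CPM in RA shNMC cells (log2 0.91, SE 0.11, edgeR adjusted p = 5.8e-07). In mESCs it had 100, 107 and 110 CPM with shMed12 against 87.4, 80.4 and 80.9 CPM with shNMC (log2 0.35, SE 0.10, edgeR adjusted p = 9.7e-03). The effect after RA exceeded that in mESCs by 0.56 (SE 0.15, edgeR adjusted p = 0.030 for the interaction). For Six2 the interaction was -2.52 (SE 0.69, edgeR adjusted p = 0.035): it had 0.346, 0.282 and 0.262 CPM in mESC shMed12 cells against 0.0415, 0.0393 and 0.0492 CPM in mESC shNMC cells (log2 2.71, SE 0.60), and after RA 1.37, 1.37 and 1.43 CPM with shMed12 against 1.39, 1.54 and 0.726 CPM with shNMC (log2 0.19, edgeR adjusted p = 0.67). These were the only 2 of 48 members with a called interaction for shMed12, where 1.74% of all genes had a positive and 3.30% a negative one (5.04% in either direction). Both calls were lost in most fits without 1 library, Six2 in 10 of 12 (adjusted p up to 0.10) and Six4 in 8 of 12 (up to 0.12). Six5 did not pass with shMed12 in either state.

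Of the Nkx genes, Nkx6-3 fell with shMed12 in mESCs, to 0.623, 0.333 and 0.483 CPM against 4.13, 4.62 and 4.62 CPM with shNMC (log2 -3.20, SE 0.51, edgeR adjusted p = 3.0e-05). With RA it had 0.193, 0.214 and 0.305 CPM with shMed12 and 0.661, 0.461 and 0.894 CPM with shNMC (log2 -1.49, SE 0.58, edgeR adjusted p = 0.042), a call lost in 5 of 6 fits without 1 library (adjusted p up to 0.14). Nkx2-1, a gene of lung, thyroid and ventral forebrain, fell to 0.0386, 0.0713 and 0.0359 CPM in RA shMed12 cells against 0.554, 0.479 and 0.261 CPM in RA shNMC cells (log2 -3.08, SE 0.55, edgeR adjusted p = 2.0e-04).

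Among the LIM and forebrain genes, Isl1, a marker of motor neurons and cardiac progenitors, had 1.83, 1.84 and 1.72 CPM in RA shMed12 cells against 3.93, 3.59 and 4.10 CPM in RA shNMC cells (log2 -1.11, SE 0.32, edgeR adjusted p = 8.5e-03). In mESCs its log2 change was -1.01 (SE 0.35, edgeR adjusted p = 0.024), and that call was lost without mESC shMed12 replicate 2 or 3 or mESC shNMC replicate 1 (adjusted p up to 0.10). Lhx8, a forebrain and tooth gene, fell after RA (0.0486 CPM in RA shMed12 cells against 0.254 CPM in RA shNMC cells, log2 -2.31, SE 0.50). Lhx2 and Lhx6 did not pass in either state. Barhl2, a gene of neurons in retina and spinal cord, was at 0 in all 3 mESC shMed12 libraries against 17 reads over the mESC shNMC libraries, at most 0.187 times the shNMC level at a floor of 3 reads over the group. It had 0.122 CPM in RA shMed12 cells against 0.356 CPM in RA shNMC cells (log2 -1.52, SE 0.55), a call lost in 4 of 6 fits without 1 library (adjusted p up to 0.13). In mESCs the calls of Lhx3 (a fall) and of Dlx2 and Prrx1 (rises) were lost without some single libraries (adjusted p up to 0.13, 0.056 and 0.12).

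Markers of other cells moved with shMed12. Trophectoderm markers, of which 9 were measured, all rose in mESCs and summed to 591 to 768 CPM with shMed12 against 22.2 to 28.4 CPM with shNMC; after RA they summed to 703 to 922 CPM against 45.6 to 56.8 CPM, and 8 rose. None of the 9 was at 0 in these groups. Fibroblast markers rose for 9 of the 11 tested in either state, and the 12 measured summed to 350 to 396 CPM with shMed12 in mESCs against 16.6 to 19.4 CPM with shNMC, where Lum was at 0. After RA they summed to 349 to 393 CPM with shMed12 against 42.7 to 43.6 CPM with shNMC, where Lum and Postn were at 0. Most of these sums is Tagln and Acta2, genes of smooth muscle: Tagln had 243 to 279 CPM in RA shMed12 cells against 3.13 to 3.92 CPM in RA shNMC cells, and 251 to 303 CPM in mESC shMed12 cells against 1.59 to 2.38 CPM in mESC shNMC cells. Acta2 had 34.6 to 42.5 CPM in RA shMed12 cells against 0.0536 to 0.186 CPM in RA shNMC cells, and 50.6 to 69.8 CPM in mESC shMed12 cells against 0.157 to 0.291 CPM in mESC shNMC cells. Thy1 fell in both states, averaging 2.02 CPM in RA shMed12 cells against 4.23 CPM in RA shNMC cells and 3.48 CPM in mESC shMed12 cells against 7.38 CPM in mESC shNMC cells. Neural crest markers, 7 measured and none at 0, summed to 50.0 to 57.1 CPM in RA shMed12 cells against 24.6 to 28.0 CPM in RA shNMC cells. In mESCs they summed to 48.4 to 56.7 CPM with shMed12 against 32.5 to 47.2 CPM with shNMC. They did not move together. Ets1 rose in both states, averaging 36.7 against 14.3 CPM after RA and 25.7 against 4.48 CPM in mESCs. Ngfr rose after RA and Sox9 in mESCs. Foxd3 fell in mESCs (8.57 CPM with shMed12 against 18.8 CPM with shNMC), and Snai2 fell after RA. Sox10 passed in neither state. Pluripotency markers, none at 0, summed to 1589 to 1713 CPM in RA shMed12 cells against 2399 to 2896 CPM in RA shNMC cells, and to 3475 to 3742 CPM in mESC shMed12 cells against 6099 to 6148 CPM in mESC shNMC cells. Extraembryonic endoderm markers, 10 measured, summed to 71.5 to 79.4 CPM in RA shMed12 cells against 81.8 to 104 CPM in RA shNMC cells. In mESCs they summed to 30.8 to 36.7 CPM with shMed12, where Ttr was at 0, against 51.8 to 68.9 CPM with shNMC. The part of these cells in the members' changes was not tested.

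**Figure D4:**
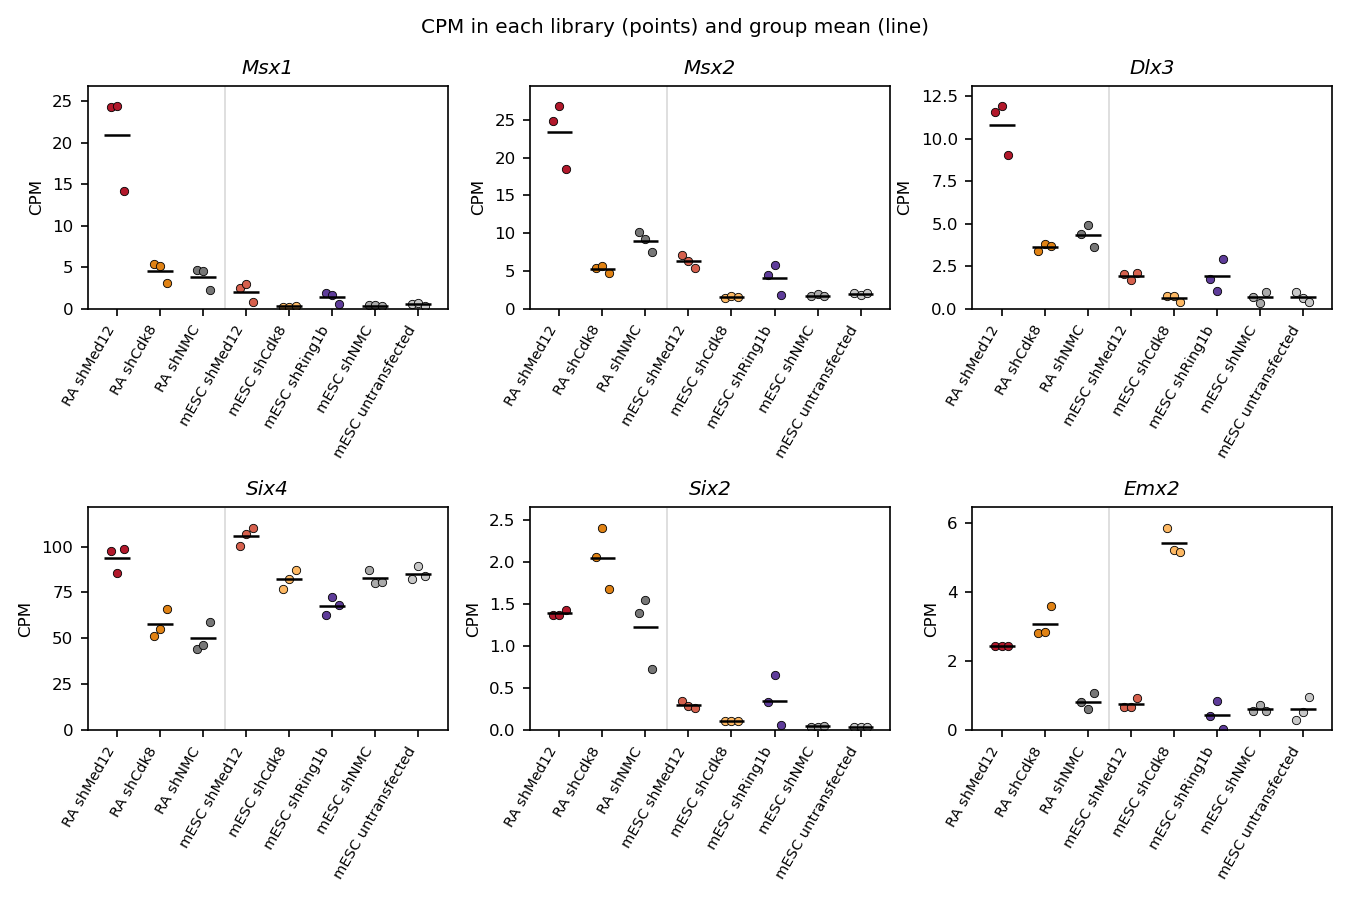
CPM of Msx1, Msx2, Dlx3, Six4, Six2 and Emx2 in each library (points) with the group mean (line), RA groups left of mESC groups. RA shMed12 stands above the other groups for Msx1, Msx2 and Dlx3, the RA groups are the highest for Six2, and mESC shCdk8 is the highest group for Emx2.

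With shCdk8 few members changed, 1 rise and 2 falls in mESCs and 1 rise and 2 falls after RA, against 2.24% and 1.42% of all genes in mESCs (3.66% in either direction) and 4.10% and 3.64% after RA (7.73%). Over all 55 members, groups did not overlap for 9 higher and 8 lower in mESCs (17.2% and 15.8% of the genes tested). After RA they did not overlap for 6 higher and 14 lower (18.7% and 18.2%). Median log2 changes were -0.13 in mESCs and -0.21 after RA, against 0 to 2 decimals over all genes. The rise was Emx2, a gene of the cerebral cortex and urogenital tract, in both states. In mESCs it had 5.85, 5.21 and 5.16 CPM with shCdk8 against 0.560, 0.728 and 0.541 CPM with shNMC (log2 3.14, SE 0.41, edgeR adjusted p = 1.5e-04). With RA it had 2.79, 2.84 and 3.59 CPM with shCdk8 against 0.804, 0.603 and 1.06 CPM with shNMC (log2 1.90, SE 0.38, edgeR adjusted p = 3.9e-03). Emx2 also had 2.43, 2.44 and 2.44 CPM in RA shMed12 cells (log2 1.57 against RA shNMC cells, SE 0.38, edgeR adjusted p = 2.4e-03), while mESC shMed12 cells, at 0.669, 0.667 and 0.926 CPM, did not pass (log2 0.31, edgeR adjusted p = 0.60). It rose with RA in the shMed12 line (log2 1.68, edgeR adjusted p = 2.1e-03). The changes were -0.82 with shCdk8 (adjusted p = 0.059) and 0.42 with shNMC (adjusted p = 0.41), and neither interaction was called.

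Emx2 overlaps Emx2os on the opposite strand, and reads of both genes cannot be told apart if the counting ignored strand. Emx2os had 0.248, 0.234 and 0.162 CPM in mESC shCdk8 cells against 0.0415, 0.0393 and 0 CPM in mESC shNMC cells (log2 2.78, SE 0.61, edgeR adjusted p = 0.014). It stayed at 0.182, 0.185 and 0.274 CPM in RA shCdk8 cells against 0.0357, 0.0532 and 0.112 CPM in RA shNMC cells (log2 1.63, SE 0.48, edgeR adjusted p = 0.043).

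Falls with shCdk8 included Nkx2-5, a heart gene, in mESCs (6 reads over the shCdk8 libraries against 30 over the shNMC libraries, log2 -2.26, SE 0.61), and Nkx2-1 after RA (0.116, 0.170 and 0.137 CPM with shCdk8 against 0.554, 0.479 and 0.261 CPM with shNMC, log2 -1.59, SE 0.45). Both were lost in most fits without 1 library, 4 of 6 for Nkx2-5 (adjusted p up to 0.24) and 5 of 6 for Nkx2-1 (up to 0.16). Extraembryonic endoderm markers, 10 measured and none at 0, summed to 123 to 166 CPM in RA shCdk8 cells against 81.8 to 104 CPM in RA shNMC cells. In mESCs they summed to 85.7 to 119 CPM with shCdk8 against 51.8 to 68.9 CPM with shNMC. However, 0 of the 10 was called in either state in edgeR (0 after RA and 2 in mESCs at an unadjusted p under 0.05). Pluripotency markers, 10 measured and none at 0, summed to 1644 to 2079 CPM in RA shCdk8 cells against 2399 to 2896 CPM in RA shNMC cells, where 8 of the 10 fell, and to 5324 to 5461 CPM in mESC shCdk8 cells against 6099 to 6148 CPM in mESC shNMC cells, where 0 of the 10 was called (1 at an unadjusted p under 0.05). Fibroblast markers summed to 55.8 to 59.0 CPM in RA shCdk8 cells against 42.7 to 43.6 CPM in RA shNMC cells (3 of 11 rose), and to 24.5 to 25.7 CPM in mESC shCdk8 cells against 16.6 to 19.4 CPM in mESC shNMC cells (2 rose). Neural markers summed to 174 to 178 CPM in mESC shCdk8 cells against 121 to 134 CPM in mESC shNMC cells (1 of 7 rose), and no trophectoderm marker was called in either state. The part of these cells was not tested. No interaction was called for shCdk8 with edgeR (4 members at an unadjusted p under 0.05) or DESeq2 (3 at an unadjusted p under 0.05), where 0.0307% of all genes had a positive and 0.00614% a negative one (0.0369% in either direction).

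**Figure D5:**
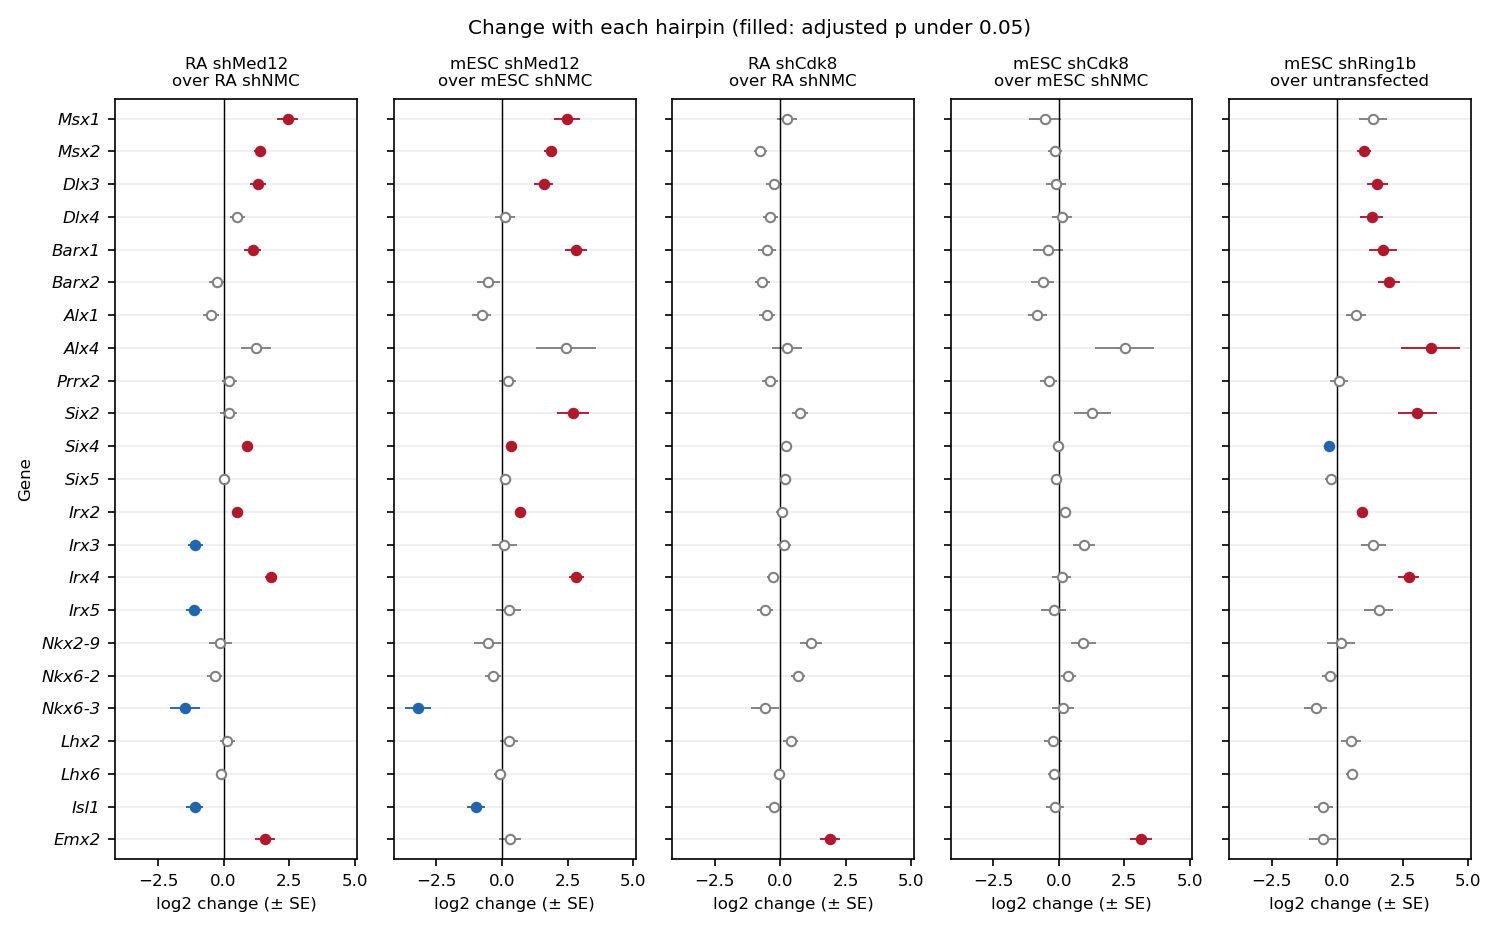
Log2 change (points, bars ± SE) of 23 of the 26 members reaching 1 CPM for shMed12 and shCdk8 against shNMC after RA and in mESCs, and for shRing1b against untransfected mESCs, filled at an adjusted p under 0.05, red for rises and blue for falls. Filled points are many in the shMed12 panels, and in the shCdk8 panels they mark Emx2.

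In the libraries labelled shRing1b, 12 members rose and 1 fell against untransfected cells, where 9.68% of all genes rose and 5.42% fell (15.1% in either direction). Over all 55 members, groups did not overlap for 11 higher and 1 lower (8.52% and 7.84% of the genes tested). The median log2 change was 1.04 over the 48 members and 0.02 over all genes. Irx4 had 0.910, 0.398 and 0.742 CPM in shRing1b cells against 0.111, 0.160 and 0.0371 CPM in untransfected cells (log2 2.73, SE 0.40, edgeR adjusted p = 1.2e-04). Barx2, a gene of muscle and facial epithelium, had 0.674, 0.434 and 1.42 CPM in shRing1b cells against 0.334, 0.160 and 0.149 CPM in untransfected cells (log2 1.98, SE 0.43, edgeR adjusted p = 4.1e-03). Its highest value was in replicate 3, the library with Rnf2 at 207 CPM. Irx2 had 6.70, 8.58 and 3.83 CPM in shRing1b cells against 4.15, 2.79 and 2.86 CPM in untransfected cells, which overlap (log2 0.96, SE 0.22, edgeR adjusted p = 5.4e-03). These 3 and Dlx6 passed in every fit without 1 library; Dlx6 had 0.371, 0.398 and 0 CPM against 0 reads in the untransfected libraries, at least 6.36 times higher at a floor of 3 reads over the group.

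The other rises were Alx4, Barx1, Dlx3, Dlx4, Irx1, Msx2, Nkx2-3 and Six2, and the fall was Six4, at 62.5, 72.7 and 68.0 CPM in shRing1b cells against 82.2, 89.2 and 83.8 CPM in untransfected cells (log2 -0.33, SE 0.11, edgeR adjusted p = 0.038). Each of these 9 calls was lost without some single library (adjusted p up to 0.38 for Alx4). Msx2 had 4.48, 5.72 and 1.84 CPM in shRing1b cells against 2.11, 1.76 and 2.04 CPM in untransfected cells, so replicate 3 lay among the untransfected libraries (log2 1.01, SE 0.27, edgeR adjusted p = 0.016). Dlx3, by contrast, was highest in replicate 3, with 1.75, 1.01 and 2.91 CPM in shRing1b cells against 0.964, 0.638 and 0.371 CPM in untransfected cells (log2 1.53, SE 0.39, edgeR adjusted p = 0.011). Six2 had 30 reads over the shRing1b libraries against 3 over the untransfected ones, a ratio of 8.68 (95% counting interval 2.70 to 44.4).

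Replicates of shRing1b stood apart from each other. Emx2 had 0.404, 0.833 and 0.0297 CPM, Nkx6-3 6.64, 2.68 and 0.683 CPM and Isl1 2.43, 1.34 and 0.416 CPM, each lowest in replicate 3, the library with 207 CPM of Rnf2. Prrx2, with 1.08, 1.27 and 3.86 CPM, was highest there. Without replicate 3, 20 members were called (18 rises), without replicate 2, 9 were, and with the shRing1b and untransfected libraries alone no member passed in edgeR (0 of 20 fitted, 8 at an unadjusted p under 0.05). Extraembryonic endoderm markers, 10 measured and none at 0, summed to 45.8 to 634 CPM in shRing1b cells against 71.5 to 98.5 CPM in untransfected cells. In the shRing1b libraries Dab2 was at 47.1, 331 and 15.3 CPM and Gata4 at 22.7, 77.2 and 2.97 CPM. Trophectoderm markers summed to 68.2 to 119 CPM in shRing1b cells against 23.0 to 34.7 CPM in untransfected cells, with none of the 9 at 0; the part of these cells was not tested.

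Against shNMC cells, a comparison that also holds the difference between the technical sets, 16 members rose with shRing1b and 0 fell (1 in DESeq2), where 12.9% and 7.36% of all genes did (20.2% in either direction). Lhx6 was among them, at 7.11, 6.77 and 4.36 CPM in shRing1b cells against 3.45, 3.68 and 3.19 CPM in mESC shNMC cells (log2 0.82, SE 0.20, edgeR adjusted p = 5.2e-03); against untransfected cells, at 4.34, 5.15 and 2.93 CPM, it did not pass (log2 0.55, edgeR adjusted p = 0.062). No member differed between mESC shNMC and untransfected cells in edgeR (2 at an unadjusted p under 0.05) or DESeq2 (1 at an unadjusted p under 0.05), where 0.00614% of all genes rose and 0% fell. The rises of mESC shMed12 over shNMC cells and of shRing1b over untransfected cells, which share no libraries, had 7 members in common, 50.0% of the first 14 and 58.3% of the second 12: Barx1, Dlx3, Irx1, Irx2, Irx4, Msx2 and Six2. All 12 members that rose with shRing1b over untransfected cells also rose with RA in shNMC cells, as did 35 of the 48 tested. Neither overlap was counted over all genes.

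Members under 1 CPM in every group had highest group means between 0.00594 CPM (Nkx2-6) and 0.871 CPM (Dlx5). The others, with their highest mean in CPM, were Msx3 0.862, Nkx1-2 0.728, Irx1 0.714, Dlx6 0.678, Dlx1 0.670, Nkx2-5 0.663, Dlx2 0.528, Nkx2-1 0.431, Lhx9 0.421, Prrx1 0.391, Irx6 0.379, Six3 0.370, Lhx3 0.367, Barhl2 0.356, Nkx2-3 0.349, Lhx1 0.279, Lhx8 0.254, Lhx5 0.234, Emx1 0.218, Lhx4 0.213, Six6 0.195, Nkx2-2 0.193, Isl2 0.179, Nkx6-1 0.151, Barhl1 0.143, Nkx3-2 0.0915 and Nkx2-4 0.0503. Several rose with RA from few or no reads. Nkx2-1 had 72 reads over the RA shNMC libraries against 1 over the mESC shNMC libraries, a ratio of 60.6 (95% counting interval 10.5 to 2426), and Irx6 63 against 2 reads, a ratio of 26.5 (7.04 to 224). Dlx6 had 111 reads over the RA shCdk8 libraries against 1 over the mESC shCdk8 libraries, a ratio of 87.3 (15.3 to 3479). Over all 12 comparisons 46 members were called at least once, where 82.9% of all genes were, and 9 in none: Six6, Nkx6-2 and the 7 not tested.

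Genes that work with the members, taken from lists of textbook membership, changed as follows. Of 55 other homeobox genes in the files 46 were tested, and with RA in shNMC cells 27 rose and 2 fell (median log2 1.29), the lowest p belonging to Cdx1 (64.1 against 7.63 CPM, log2 3.07, SE 0.17). With shMed12 in mESCs 8 of the 46 rose and 6 fell (median 0.03), both under the shares over all genes. They were led by the trophectoderm regulator Cdx2 (5.56 against 0.152 CPM, log2 5.18, SE 0.53). After RA 5 of the 46 rose and 8 fell (median -0.16), again under both shares. Cdx2 was up (27.8 against 1.44 CPM, log2 4.27, SE 0.42) and Otx2, a forebrain gene, was down (0.815 against 6.22 CPM, log2 -2.93, SE 0.41).

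Of the 6 Eya and Dach genes, whose products bind the sine oculis proteins, 3 rose and 1 fell with RA in shNMC cells, and Dach1 had the lowest p (4.06 CPM in RA shNMC cells against 0.416 CPM in mESC shNMC cells, log2 3.28, SE 0.28). With shMed12 in mESCs Eya4 rose (2.55 against 0.201 CPM, log2 3.65, SE 0.33) and 2 of the 6 fell. Of the 7 tested cofactors of LIM proteins 5 rose and 2 fell with RA in shNMC cells; Ldb1, the shared cofactor, fell to 95.5 CPM in RA shNMC cells against 192 CPM in mESC shNMC cells (log2 -1.01, SE 0.10). Of 13 BMP and hedgehog pathway genes, 5 rose and 2 fell with shMed12 in mESCs, Gli3 at 67.8 against 24.4 CPM (log2 1.47, SE 0.15) and Gli2 at 56.1 against 142 CPM (log2 -1.34, SE 0.13). After RA 6 rose and 3 fell with shMed12, Id3, a target of BMP signals, at 65.5 CPM in RA shMed12 cells against 18.6 CPM in RA shNMC cells (log2 1.82, SE 0.36). Shares over all genes in these comparisons are those given with the other homeobox genes. Whether these short lists differ from them was not tested.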

How the data were processed

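Each library came as a deposited table of raw counts for 22609 gene symbols, unscaled by the authors. The submitters' processing notes list STAR 2.3.1z13, HTSeq 0.6.1p1, SAMtools 1.2, DESeq2 1.6.3, bcl2fastq 1.8.4 and build mm9, without their roles; annotation and strand setting are not stated in those notes. The 5 entries that name no gene, 35.9% to 58.7% of all entries, were left out of library sizes. Counts were fitted with edgeR 4.0.16 in R 4.3.3 on the counts as deposited: filterByExpr by group (16280 genes), TMM scaling, 1 mean per group over 24 libraries (16 residual degrees of freedom, common biological coefficient of variation 0.145) and robust two-sided quasi-likelihood tests. Benjamini-Hochberg adjustment ran over all genes of a comparison, and an adjusted p under 0.05 was called. SEs were derived from the log2 change and the quasi-likelihood F statistic (change over the root of F). Intervals of read ratios and floors of 3 reads cover counting error only. Alternatives were median-ratio scaling, no filter, DESeq2 1.42.0, a replicate block, the compared groups alone and each library left out.

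The fitting step was tested on simulated data. There only genes with many reads were changed, and 1 common spread was used. The test therefore does not cover members with few reads or the spread between the shRing1b libraries. Members and lists were chosen with earlier results of these data known. The rule gave full statistics to members called in at least 1 comparison with 5 CPM or more in a group, up to the 4 lowest p in each direction of a comparison, and ranges or levels to the rest; of the fixed lists it allowed up to 3 genes with the lowest p per comparison; further detail on members under 5 CPM, and the choice of promoters printed, followed their values. Groups were taken as paired where all 3 correlations of same-numbered deviations exceeded 0.1. By this rule replicate numbers pair RA shCdk8 with RA shNMC (0.475, 0.287 and 0.537) and with mESC shCdk8 (0.358, 0.169 and 0.371). Other groups compared directly missed the rule in at least 1 replicate, which does not show them unpaired. RA shMed12 had 0.264, 0.005 and 0.375 with mESC shMed12, and 0.320, 0.067 and 0.355 with RA shNMC. The source of the pairing is the data, not the labels. Promoters came from RefSeq by symbol, and exon overlaps from GENCODE M21. Ventx, Tfap2c, Tfap2a and Map2, listed as related genes or markers, were not used here. Some members and listed genes stay in the counts but are not reported here by name or drawn.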

Additional observations from a re-analysis of the deposited data

Results flagged for a closer look

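The effect of shMed12 differed between RA cells and mESCs for Six2 and Six4, by an interaction term fitted with edgeR. For Six2 the difference was -2.52 on the log2 scale and for Six4 it was 0.56. Both calls were lost in most fits that left out 1 library. The share of reads with several alignments, which enters no comparison, reached 47.2% of all entries in an mESC shNMC library, and 20.0% to 21.7% in the shRing1b and untransfected libraries. Groups of 3 libraries were not searched for single outlying values.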

How the results depend on the processing

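The 179 member calls were recomputed, which gave 1944 alternative values: 1765 stayed past the threshold, 179 fell short of it and 0 changed sign. Settings that filtered a gene out, or gave it no adjusted p, yielded no value and are not among these. Of the calls, 127 held in every setting that gave a value, which for some genes was not every setting. With the compared groups fitted alone, members called numbered 0 for shRing1b against untransfected cells (13 in the full fit), 0 for shRing1b against shNMC (16), 6 for shCdk8 after RA (3) and 8 for the shMed12 interaction (2). These fits kept 20, 21, 41 and 44 members in turn, against 48 in the full fit, so the sets compared differ. Shares over all genes were not counted for any of the alternative fits. Leaving out 1 library at a time gave 7 to 20 members for shRing1b against untransfected cells, 1 to 2 for shCdk8 in mESCs and 0 to 3 for the shMed12 interaction. Where such a fit leaves a group with 2 libraries, the spread is shared over the groups. The replicate block gave 37, 31 and 36 members for RA in shNMC, shMed12 and shCdk8 cells, 18 and 21 for shMed12 in mESCs and after RA, 3 and 4 for shCdk8, 15 and 17 for shRing1b against untransfected and shNMC cells, and 3 for the shMed12 interaction. Under it the fall of Nkx6-3 with shMed12 after RA was lost (adjusted p = 0.053), and no other member call was. The cause of these shifts was not tested. Members at or under 3 counts per library are at the limit of the depth, and whether depth or the spread between libraries limits the others was not compared.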
